A study of Mus musculus with 3 samples.

Results

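The genes described here encode proteases that turn plasminogen into plasmin, the receptor that holds one of them on the cell surface, and the inhibitors and receptors that limit plasmin and thrombin around a cell. The 9 genes were chosen by name, with earlier results of these data known, and all 9 were found among the 56833 rows of the deposited table. They are the proteases Plau and Plat, the protease receptor Plaur, the serpins Serpine2 and Serpinb2, the thrombin receptors F2r and Thbd, and the Kunitz-type inhibitors Tfpi and Tfpi2.

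The RNA came from cells of mouse ankle synovium, the tissue that lines the joint. Every library shares the genotype Efhd1CreER; Ai9, in which a Cre recombinase under control of Efhd1, active only in the presence of tamoxifen or a like ligand, switches on the red protein tdTomato. Cells positive for tdTomato were sorted and grown for 24 h on collagen-coated CytoSoft plates whose stiffness was 0.2 kPa, 8 kPa or 64 kPa, here named soft, intermediate and stiff, and each stiffness gave 1 library. Whether the cultures came from 1 pool of cells is not stated. The label is heritable and marks cells whether or not they still transcribe Efhd1, and tamoxifen treatment, age and sex of the mice are not given in the labels.

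With 1 library per stiffness no statistical test was possible, so no p-value is given. Differences between cultures and differences between stiffness levels cannot be told apart, and any 2 of the comparisons share a library. The libraries held 25487064 to 28081600 reads. Intervals are exact 95% intervals from read counts, Poisson for a level and Clopper-Pearson for a ratio of 1 gene between libraries, while the interval of a ratio between 2 genes is a normal approximation from the same counts. Reads made by PCR are not independent molecules, so the intervals cover counting error only.

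The labels call the cells telocytes. Of 10 fibroblast markers all were detected, led by Col1a1, which encodes a chain of type I collagen. Their sum was 247013, 293030 and 349756 normalized counts from soft to stiff. Of the 10, 7 were higher in the stiff than in the soft library, as were 6064 of 11873 genes averaging at least 50 normalized counts. Their median log2 ratio of stiff to soft was 0.27, or 0.06 with the trend of the ratios with transcript length and GC content subtracted. The 8 telocyte markers summed to 108180, 118180 and 125338, most of it from Vim, which other mesenchymal cells also express. Efhd1 itself had 10, 5 and 3 reads from soft to stiff. Macrophage transcripts were present in every library: the 12 markers summed to 30259, 37395 and 65543 normalized counts in the same order, none of them at 0, with Lyz2 the most abundant. In bulk RNA, more cells of a type and more RNA per cell cannot be told apart.

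Plasminogen activation works at the cell surface. Urokinase (Plau) binds its receptor Plaur, cleaves plasminogen to plasmin there, and is blocked by serpins, which trap the protease in a covalent complex that is taken up by Lrp1. Plasmin digests fibrin and matrix proteins and can activate latent growth factors and metalloproteinases. In the joint, fibrin deposits on the synovial lining are a known feature of arthritis, and synovial fibroblasts and macrophages are both known to make members of this system.

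All 9 genes were well covered, with 1173 to 22097 reads per gene and library, and all passed the minimum mean of 50 normalized counts over the 3 libraries that was set for counting changed genes. None differed by a log2 ratio of 1, a doubling, between any pair of libraries. The log2 ratio was taken after adding 1 to each value. The background is 3.60% of 11873 genes past that size for 64 against 0.2 kPa, 0.168% for 8 against 0.2 kPa and 1.25% for 64 against 8 kPa. At a log2 ratio of 0.5, 4 of 9 passed for 64 against 0.2 kPa, beside 15.6% of the genes tested, and 0 of 9 for 8 against 0.2 kPa, beside 4.60%. Serpinb2 and Plaur were higher in the stiff library, as were 11.8% of the genes tested, and Serpine2 and Plat were lower, as were 3.77%. Just outside that size stood Plau at 0.48, and just inside it Plaur at 0.51. The median size of the stiff to soft log2 ratio, regardless of direction, was 0.48 for the 9 genes and 0.19 for all genes tested. Because the 9 were chosen with earlier results of these data known, neither this contrast nor the counts above are a test.

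**Figure D1:**
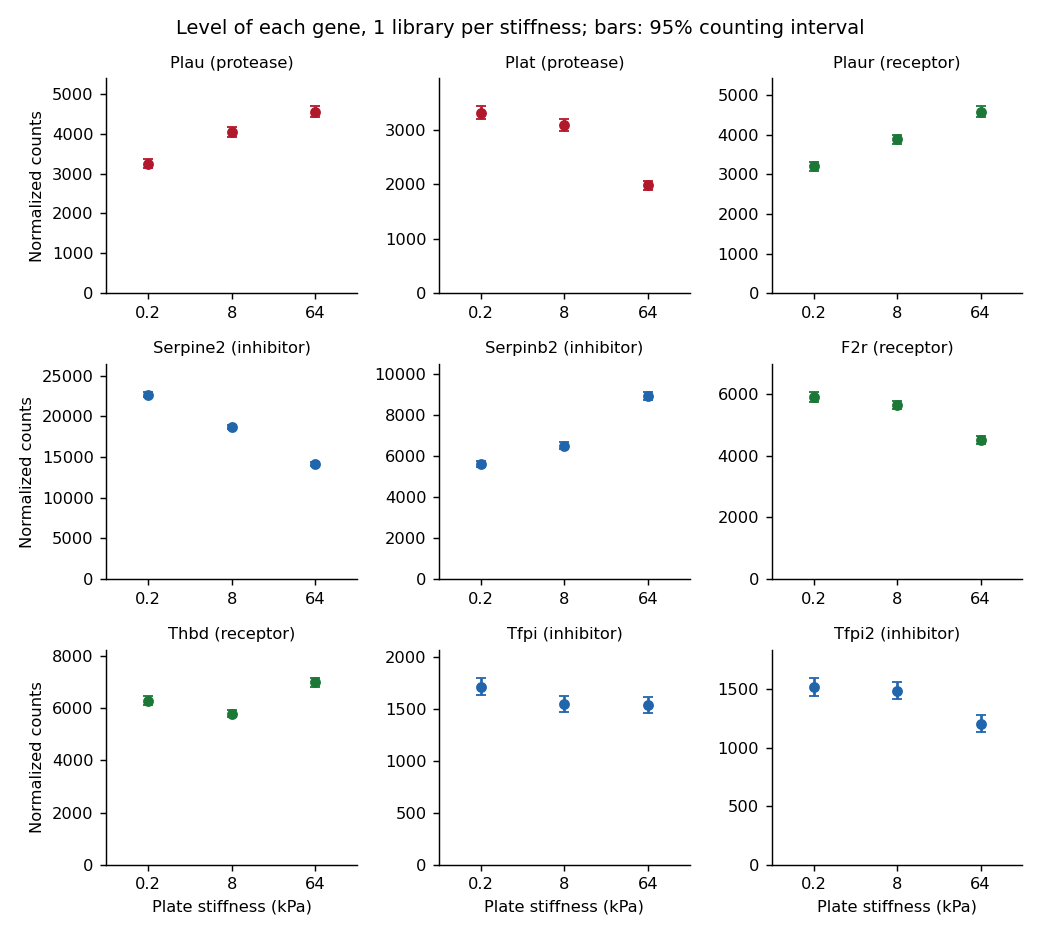
Normalized counts of each of the 9 genes (vertical axis, from 0) against plate stiffness in kPa (horizontal axis, evenly spaced); each point is 1 library and each bar its 95% counting interval. Plau, Plaur and Serpinb2 step upward from 0.2 to 64 kPa, while Plat, Serpine2, F2r and Tfpi2 step downward.

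Promoter sequences are shown for genes that were higher and genes that were lower in the stiff library. RefSeq windows on GRCm38.p6 were given for 6 of the 9, Plaur, Serpine2, Serpinb2, F2r, Tfpi and Tfpi2, in 10 windows, and the 250 bases before each start site were searched on both strands. The AP-1 motif TGANTCA, the binding sequence of Fos and Jun proteins, was found in 4 of the 6 genes, Plaur, Serpinb2, F2r and Tfpi2, and in 6.75% of all 32851 windows of that length. Of these 4 genes 2 were higher and 2 were lower in the stiff library. The windows of 3 are printed here 5′ to 3′ on the strand of the gene, with the AP-1 match, and in Serpinb2 also the TATA box, in capitals. Parts of the Plaur and Tfpi2 windows, and the windows of F2r and Serpine2, are not printed because they overlap annotated transcripts of these genes. The printed Tfpi2 stretch lies downstream of the 2 other Tfpi2 windows, at chr6:3988859-3989108 and chr6:3988937-3989186. Transcripts from those upstream starts can run across it, so it is not shown to be free of transcribed sequence.

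Plaur, chr7:24462233-24462432, plus strand: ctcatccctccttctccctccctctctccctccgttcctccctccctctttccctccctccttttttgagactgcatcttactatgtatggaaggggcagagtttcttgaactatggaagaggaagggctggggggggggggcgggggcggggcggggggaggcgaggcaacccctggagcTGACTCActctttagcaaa
Serpinb2, chr1:107511173-107511422, plus strand: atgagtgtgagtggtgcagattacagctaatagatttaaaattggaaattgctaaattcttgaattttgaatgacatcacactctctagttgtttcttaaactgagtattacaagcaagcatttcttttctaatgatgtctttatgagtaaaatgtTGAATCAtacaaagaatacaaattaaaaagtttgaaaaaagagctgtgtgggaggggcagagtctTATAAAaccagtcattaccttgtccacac
Tfpi2, chr6:3968426-3968625, minus strand: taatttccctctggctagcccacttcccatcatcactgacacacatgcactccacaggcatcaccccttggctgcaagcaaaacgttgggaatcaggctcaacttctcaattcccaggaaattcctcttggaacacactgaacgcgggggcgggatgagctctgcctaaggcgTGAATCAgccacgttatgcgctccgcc

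The AP-1 match lies 69 to 63 bases before the start in Plaur and 204 to 198 in F2r. In Serpinb2 it lies 94 to 88 before the start of the printed window (181 to 175 before its other annotated start). In Tfpi2 it lies 77 to 71 before the start of the printed window, and the 2 other windows of Tfpi2 have no AP-1 match. Plaur carries the letters TGACTCA, F2r TGAGTCA, and Serpinb2 and Tfpi2 TGAATCA. Serpinb2, Tfpi and Tfpi2 have more than one window, which gives them more chances of a match to any motif than the share per window allows for. Serpine2 had no match to any motif searched, and its window has a GC content of 78.8%, against 32.4% in the printed window of Serpinb2. The TATA box TATAAA was found in Serpinb2 and Tfpi and in 12.4% of all windows, and CACCC, bound by KLF factors, in F2r, Tfpi and Tfpi2 and in 52.0% of all windows. The TEAD motif GGAATG and the CArG box bound by SRF were in none of the 6 and in 12.6% and 1.47% of all windows. A match of letters says nothing on whether a factor was bound.

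The 2 plasminogen activators went in opposite directions. Plau, which encodes urokinase, the activator that acts on the cell surface, occupies chr14:20886722-20893453 on GRCm39 (plus strand, 11 exons in its canonical transcript). It stood at 3253 normalized counts at 0.2 kPa, 4038 at 8 kPa and 4547 at 64 kPa. The 3 values ascend with stiffness and their counting intervals do not overlap. The stiff level was 1.40-fold the soft level, a log2 ratio of 0.48 with an interval from 0.42 to 0.55, and 64.5% of that log2 difference was already present at the intermediate stiffness. With the trend of the ratios with transcript length and GC content subtracted, the ratio was 0.55, which passes 0.5.

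Plat encodes tissue-type plasminogen activator, which is stimulated by fibrin, and occupies chr8:23247709-23272871 (plus strand, 14 exons). Its level was 3317.5 normalized counts at 0.2 kPa, 3094 at 8 kPa and 1982 at 64 kPa. The soft and intermediate values were close, and the stiff value lay below both. Of the 9 genes it had the lowest stiff to soft log2 ratio, -0.74 (interval -0.83 to -0.66), a level 1.67-fold lower. Among all genes tested, 98.8% had a higher ratio. The step from soft to intermediate was only -0.10, and the step from intermediate to stiff was -0.64. With no trend subtracted, the latter was the only step of any of the 9 genes that reached 0.5 in size. For that size and step the background is 8.84% of the genes tested.

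Within a library the ratio of Plau to Plat is free of the scaling between libraries. Levels of different genes were compared per kilobase of canonical transcript. Plau was 1.08 times Plat at 0.2 kPa, 1.44 times at 8 kPa and 2.53 times at 64 kPa. The ratio was 2.34-fold higher in the stiff than in the soft library, a log2 change of 1.23 with a counting interval from 1.12 to 1.33. With the union of all annotated exons as length, chosen after seeing the data, the ratios were 2.66, 3.54 and 6.23. The choice of length thus sets the level of a ratio between genes and leaves its change between libraries as it is.

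Plaur encodes the urokinase receptor, a protein anchored in the membrane by a lipid tail, and occupies chr7:24161875-24175394 (plus strand, 7 exons). It measured 3208, 3884 and 4581 normalized counts from soft to stiff. These values ascend with stiffness, as those of Plau do. The stiff to soft log2 ratio was 0.51 (interval 0.45 to 0.58), which became 0.46, short of 0.5, when the libraries were scaled to total reads. Relative to its receptor, Plau held nearly the same place throughout: the ratio of Plau to Plaur per kilobase was 0.665, 0.682 and 0.651 (1.58, 1.62 and 1.55 with union lengths, which turns over which gene is higher), a log2 change from soft to stiff of -0.03 with an interval from -0.12 to 0.06.

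Serpine2 encodes protease nexin-1, a secreted serpin that inhibits thrombin, urokinase and tissue-type plasminogen activator. The gene occupies chr1:79763323-79839144 (minus strand, 9 exons). It had the highest value of the 9 in every library, at 22654 normalized counts at 0.2 kPa, 18684 at 8 kPa and 14119 at 64 kPa. The values descend over both steps without overlap of their intervals. Its log2 ratio was -0.28 for the first step, -0.40 for the second and -0.68 (interval -0.71 to -0.65) from soft to stiff, with the level at 64 kPa 0.623 times that at 0.2 kPa. Of all genes tested, 98.3% had a higher stiff to soft ratio.

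Serpinb2 encodes plasminogen activator inhibitor 2, a serpin that stays largely inside the cell and is a known product of activated macrophages and fibroblasts. It occupies chr1:107428593-107463208 (plus strand, 8 exons). Its level was 5613 normalized counts at 0.2 kPa, 6498 at 8 kPa and 8909.6 at 64 kPa. The order of the libraries is the reverse of that of Serpine2. With a stiff to soft log2 ratio of 0.67 (interval 0.62 to 0.72) it had the highest ratio of the 9, a level 1.59-fold higher, and 92.2% of the genes tested had a lower one. The first step was 0.21 and the second 0.46, or 0.58, which passes 0.5, with the length and GC trend subtracted.

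Set against Plau, the 2 serpins differed. Serpine2 was 7.40 times Plau per kilobase at 0.2 kPa, 4.92 times at 8 kPa and 3.30 times at 64 kPa, a log2 change of -1.17 (interval -1.24 to -1.09). With union exon lengths the same ratios were 1.45, 0.965 and 0.647, so which of the pair is higher per kilobase depends on the gene model, while the log2 change does not. Serpinb2 to Plau was 2.06, 1.92 and 2.33 (1.56, 1.46 and 1.77 with union lengths). Against Plat, by contrast, Serpine2 ended near where it began, at 8.00, 7.08 and 8.35 times (3.87, 3.42 and 4.03 with union lengths). The ratio was lowest at 8 kPa, and its log2 change from soft to stiff was 0.06 (interval -0.03 to 0.15). Both genes were lower in the stiff library.

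**Figure D2:**
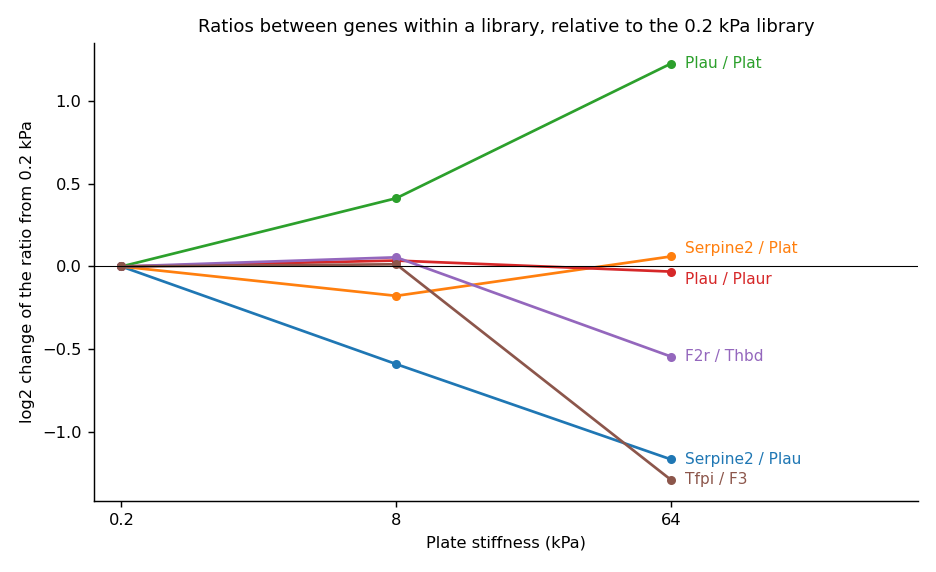
Log2 change of the ratio between 2 genes within a library, relative to the 0.2 kPa library (vertical axis), against plate stiffness in kPa (horizontal axis, evenly spaced), with 1 library per point. Plau to Plat ends above 1, Serpine2 to Plau and Tfpi to F3 end below -1, and Plau to Plaur and Serpine2 to Plat end near 0.

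The thrombin side was measured through its receptors. F2r encodes protease-activated receptor 1, which thrombin switches on by cutting its outer end, and occupies chr13:95737382-95755177 (minus strand, 2 exons). Its level was 5917 normalized counts at 0.2 kPa, 5656 at 8 kPa and 4506 at 64 kPa. The first 2 values lie near each other and the third below them. The log2 ratio from soft to stiff was -0.39 (interval -0.45 to -0.34), a level 1.31-fold lower, and 16.6% of it was present at the intermediate stiffness.

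Thbd encodes thrombomodulin, the receptor that redirects thrombin from clotting to activation of protein C. It occupies chr2:148216045-148250201 (minus strand), and its canonical transcript has 1 exon. It stood at 6292, 5787 and 6987 normalized counts from soft to stiff, the only one of the 9 genes whose 2 steps had opposite signs, at -0.12 and 0.27. The stiff to soft log2 ratio was 0.15 (interval 0.10 to 0.20), or 0.10 with the libraries scaled to total reads, and 67.8% of the genes tested had a lower one. F2r to Thbd per kilobase was 0.787 at 0.2 kPa, 0.818 at 8 kPa and 0.540 at 64 kPa. With union lengths F2r was instead above Thbd in every library, at 1.55, 1.61 and 1.06.

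Tfpi encodes tissue factor pathway inhibitor, which blocks factor Xa and the complex of tissue factor with factor VIIa. Located at chr2:84263195-84307164 (minus strand, 9 exons), it had 1717 normalized counts at 0.2 kPa, 1547 at 8 kPa and 1539 at 64 kPa. The intermediate and stiff values do not differ beyond their counting intervals. The stiff to soft log2 ratio of -0.16 (interval -0.26 to -0.06) was -0.01 after subtraction of the length and GC trend, so its size rests on that choice.

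Tfpi2 encodes a related Kunitz-type inhibitor that binds to the matrix and blocks plasmin and trypsin. It occupies chr6:3962589-3988964 (minus strand, 5 exons). Its level was 1514 normalized counts at 0.2 kPa, 1484 at 8 kPa and 1203 at 64 kPa. The first 2 values overlap in their intervals and the stiff value lies below both. From 0.2 to 64 kPa its log2 ratio was -0.33 (interval -0.44 to -0.22), and -0.15 with the length and GC trend subtracted.

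F3, which encodes tissue factor, the cell-surface trigger of clotting and the target of Tfpi, stood at 700.2 normalized counts at 0.2 kPa, 625 at 8 kPa and 1534 at 64 kPa. The stiff value was more than double the others, a log2 ratio to soft of 1.13, with an interval from just above 1 to 1.26. Tfpi was 2.28 times F3 per kilobase at 0.2 kPa, 2.30 times at 8 kPa and 0.934 times at 64 kPa, a log2 change of -1.29 from soft to stiff (interval -1.45 to -1.12). Thbd to F3 was 4.81, 4.96 and 2.44. With union lengths Tfpi to F3 was 1.24, 1.25 and 0.506, and Thbd to F3 3.81, 3.92 and 1.93.

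**Figure D3:**
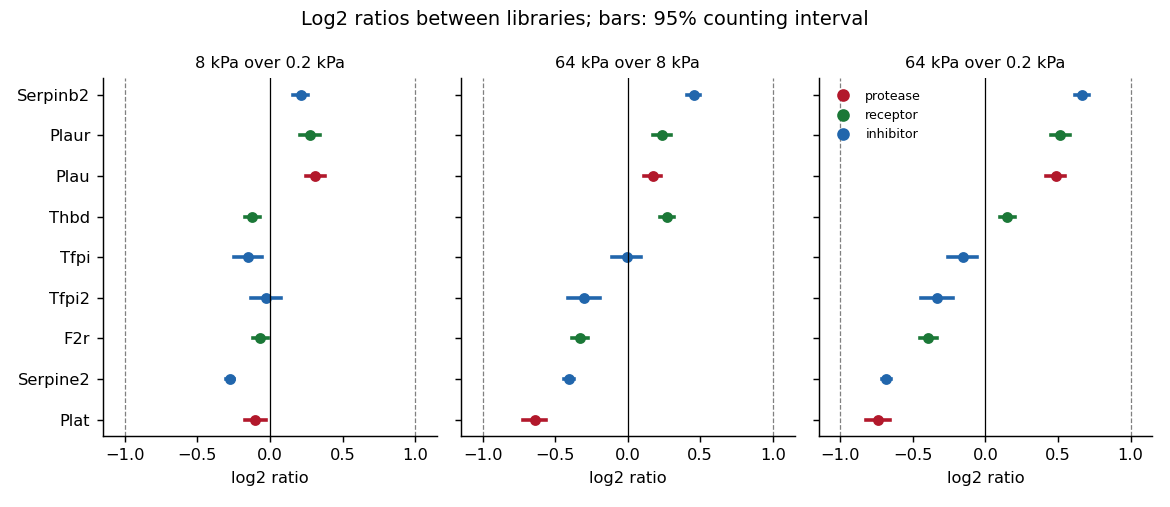
Log2 ratios of the 9 genes between libraries (horizontal axis) for the first step, the second step and the full range, with 95% counting intervals as bars and dashed lines at -1 and 1. Between 64 and 0.2 kPa the genes spread from -0.74 (Plat) to 0.67 (Serpinb2), and no point reaches a dashed line.

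Taken over both stiffness steps, 3 of the 9 genes were higher at each step (Plau, Plaur and Serpinb2), a course shared by 30.2% of the genes tested, and 5 were lower at each step (Plat, Serpine2, F2r, Tfpi and Tfpi2), a course shared by 25.6%. Some of these steps were small: the second step of Tfpi was -0.01 and the first of Tfpi2 was -0.03, and both changed sign with the length and GC trend subtracted. Plau, Plaur and Tfpi had the larger part of their difference in the first step, and Plat, Serpine2, F2r, Tfpi2 and Serpinb2 in the second, although Plaur was split nearly evenly (0.28 and 0.24). The median stiff to soft log2 ratio was -0.16 for the 9 genes and 0.005 for all genes tested.

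**Figure D4:**
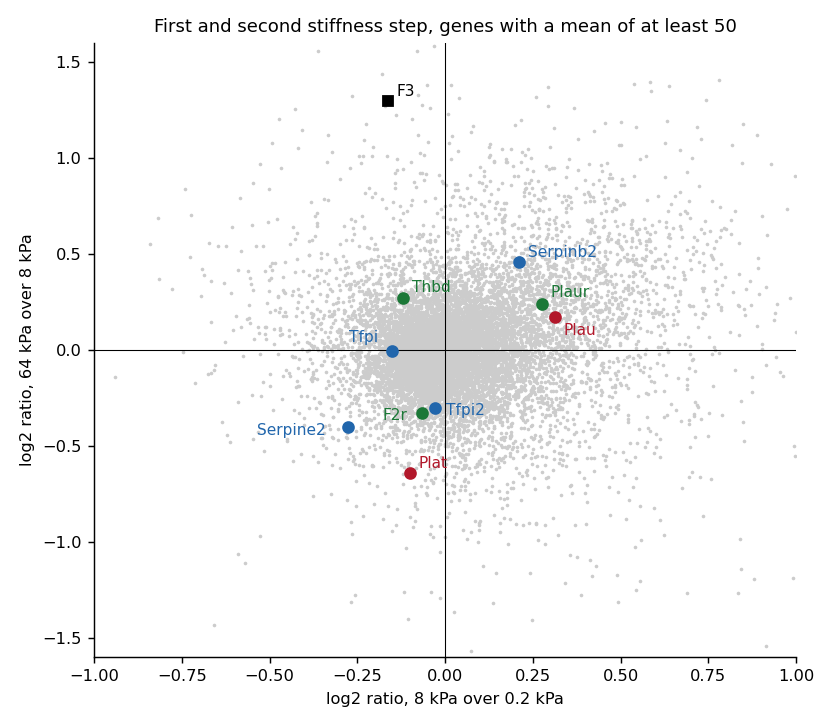
Log2 ratio of the first stiffness step (horizontal axis) against that of the second (vertical axis) for genes averaging at least 50 normalized counts; grey points are single genes, and 46 genes lie outside the axes. Plau, Plaur and Serpinb2 lie in the upper right, Plat, Serpine2, F2r and Tfpi2 in the lower left, and F3 (square) left of the vertical line with a high second step.

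Per kilobase of canonical transcript, the mean level over the libraries was 8365 for Serpine2, 3555 for Serpinb2, 2527 for Plaur, 1707 for Thbd, 1681 for Plau, 1205 for F2r, 1080 for Plat, 888 for Tfpi2 and 747 for Tfpi. Thbd and Plau are close neighbours in this order, with Thbd higher at 0.2 kPa and Plau higher at 8 and 64 kPa. The order depends on the gene model. With union exon lengths Serpinb2 came first at 2468, followed by Plau at 1537 and Serpine2 at 1501. The union is 12315 nt for Serpine2 against 2210 nt for its canonical transcript.

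Genes with the most similar course over the 3 libraries were found by distance in the pair of log2 steps, among 11408 named genes with a mean of at least 50. Nearest to Serpinb2 were Loxl2, Foxj2 and Ranbp10, at distances of 0.0055 to 0.016, and 148 genes lay within 0.1. For Plat the nearest were Jam2, Pxylp1 and Cdkn3, at 0.010 to 0.011, with 29 genes within 0.1. Serpine2 was nearest to Ccn3, Fmn2 and Has2os, at 0.030 to 0.051, with 39 genes within 0.1. This likeness rests on 3 libraries and is given as a description.

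The other genes of the plasminogen system were drawn from a list of 24, of which 16 averaged at least 10 normalized counts. Between stiff and soft, 1 of the 16 was higher and 1 lower by a log2 ratio of at least 0.5, against 13.4% and 6.89% of 14291 genes with that mean. The higher one was Lrp1, at 1.24, which encodes the endocytic receptor for complexes of serpins with proteases. Lrp1 had 5489, 9309 and 12927.5 normalized counts from soft to stiff, but its ratio was 0.13 with the length and GC trend subtracted. Hgf, a growth factor whose precursor is activated by serine proteases, was the lower one, at 3938, 3835 and 2664 normalized counts and a ratio of -0.56, or -0.38 with the trend subtracted. The plasminogen gene Plg itself had no read in any library, which allows up to 3 reads. The most abundant of the list per kilobase were the plasminogen-binding proteins Anxa2 and Eno1, with ratios of 0.23 and 0.41, and the intracellular serpin Serpinb6a, with a ratio of -0.06. The median of the 16 was 0.17, or 0.07 with the trend subtracted, beside 0.0004 for all genes with that mean.

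Of 38 other coagulation genes, 22 had that mean, with 6 higher and 2 lower by at least 0.5 between stiff and soft, beside the same 13.4% and 6.89% of all genes. Alongside F3, the higher ones with good coverage were F13a1 at 1.06, the fibrin-crosslinking transglutaminase, Entpd1 at 1.07, an enzyme that removes platelet-activating nucleotides, and Tgm2 at 0.96, a tissue transglutaminase. F5, which encodes factor V, had 11, 14 and 32 reads and a ratio of 1.46 (interval 0.52 to 2.68), and Vwf had 5, 13 and 14 reads. The lower ones, F7 and F2rl3, had at most 53 reads, and the intervals of their ratios, like that of Vwf, include 0. The most abundant of the list per kilobase were Thbs1, an adhesive matrix glycoprotein, at 0.43, Anxa5, which covers clot-promoting phospholipid, at -0.05, and Mcfd2, a cargo receptor for factors V and VIII, at 0.06. The median of the 22 was 0.23, or 0.05 with the trend subtracted. No read was counted for prothrombin (F2), the precursor of thrombin, or for protein C (Proc), and Procr, which presents protein C to thrombin bound to Thbd, had a ratio of 0.34.

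**Figure D5:**
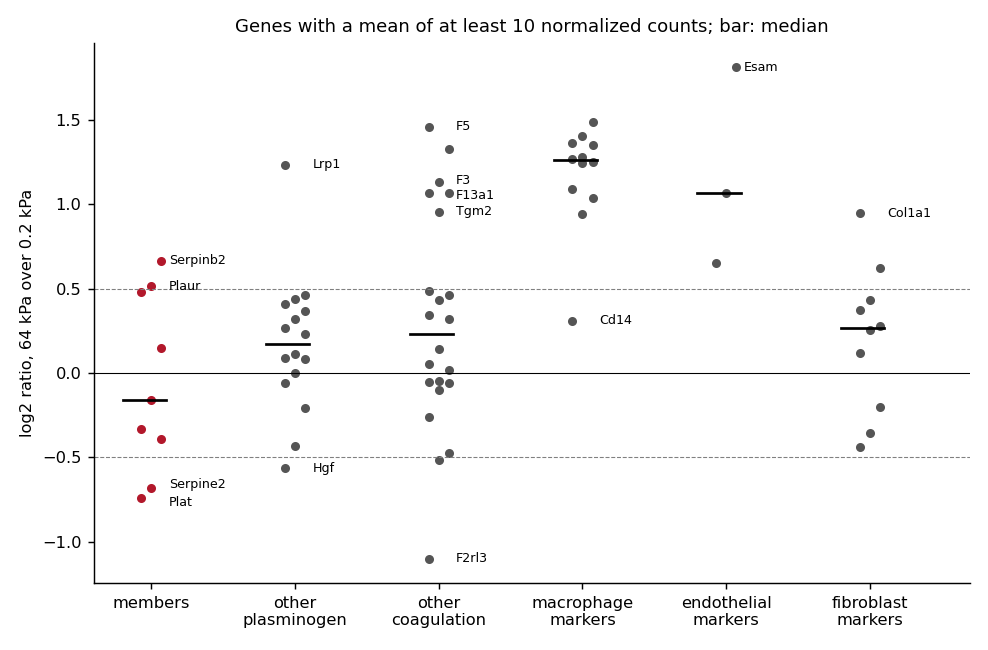
Log2 ratios between 64 and 0.2 kPa (vertical axis) for the 9 genes, the other genes of both pathways and the markers of 3 cell types, each point 1 gene averaging at least 10 normalized counts, black bars the medians and dashed lines at -0.5 and 0.5. The 9 genes spread to both sides of 0, while the macrophage markers all lie above it.

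Markers of other cells moved with stiffness beside these genes. All 12 macrophage markers were higher in the stiff than in the soft library, 10 of them by 1 or more, with a median of 1.26. Their summed level was higher by 1.12 on the log2 scale, which is more than the ratio of any of the 9 genes. Macrophages are known to express Plaur, Plau, Serpinb2, Thbd, F3 and F13a1, and their part in the higher values of these genes was not tested. Endothelial cells also make Thbd and Tfpi. Their 8 markers summed to 131, 154 and 354 normalized counts from soft to stiff, most of it Esam. The 3 of these markers that averaged at least 10 were all higher in the stiff than in the soft library, by 0.65 to 1.81 on the log2 scale, while Cldn5 was at 0 and Cdh5 had at most 5 reads.

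The remaining marker lists were low or mixed. Markers of the platelet lineage, which is rich in Thbs1 protein, held 4 genes averaging at least 10, of which 2 had a positive and 2 a negative stiff to soft log2 ratio, from -0.82 to 0.66. The highest of these ratios was that of Pf4, at 4794, 5252 and 7553 normalized counts, while Gp1ba, Gp9 and Gp6 had no read. Neutrophil markers summed to 384, 370.5 and 322, led by S100a8, with S100a9, Ly6g and Retnlg at 0. Mast and basophil markers summed to 1176, 800.4 and 788.6, nearly all from Mcpt8, with Cpa3, Fcer1a, Ms4a2 and Tpsb2 at 0. Keratinocyte markers summed to 117, 131 and 173, led by Krt10, with Krt14 at 0, and of 7 mesothelial markers Msln, Lrrn4, Upk1b, Wt1 and Muc16 were at 0 and Krt19 gave 17.4, 27.3 and 147. Mural markers summed to 10140.1, 11638 and 10881, most of it Pdgfrb, which fibroblasts also express.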

How the data were processed

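RNA was sequenced from stranded libraries selected for messenger RNA, per the labels' protocols. The submitters' processing notes name bcl2fastq 2.20.0, STAR 2.7.9a, featureCounts of Subread 2.0.1, DESeq2 1.34.0 and GRCm39, without their roles. The annotation and the use of strand in counting are not given in the sources used here. The deposited signal values are gene counts that the authors divided by 1 size factor per library. The 3 deposited files hold the same table. Each value was a whole multiple, within 0.001 reads, of its column's smallest positive value (100% of values), which gave back whole reads. One read was worth 1.03, 0.943 and 1.03 normalized counts from soft to stiff. A count-based test needs replicates and was not made.

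Log2 ratios used a pseudocount of 1. A gene was counted as changed at a size of at least 1 with a mean of at least 50, which 11873 genes had; 0.5, 2 and other settings were alternatives. Positions and lengths are from GENCODE vM39. The members and lists were chosen with earlier results of these data known. All 9 genes were named; of the listed pathway genes, those with a mean of at least 10 and a ratio of at least 0.5 in size, the 3 most abundant per kilobase in each list, F3 and Plg; and the 3 nearest in course to the genes with the highest ratio, the lowest ratio and the highest mean. 1 gene of that rule is not reported here and was left out of its lists. Other genes were named after their values were seen. The length and GC trend was a local linear fit over the 300 nearest of 13878 genes. Fold counting for stiff against soft was tested on simulated data over 11873 genes. It recovered 100.0% of 200 genes shifted by a log2 value of 1.5 and made 0 false calls. That shift is above the threshold of 1 and above the ratio of any of the 9 genes, so it checks the counting only. The spread between cultures was not measured, so the 0 false calls give no error rate for these data. The fitted trend on simulated data over 13878 genes correlated with the true one at 0.990. Motifs were searched before the start site only; the 50 bases after it, planned at first, are transcribed and were left out. The planned search of protein patterns was not run, since protein sequences were not used here. Gene models Gm63115, Gm39666 and Gm70772 and Sstr4 overlap Plau, Serpine2, Serpinb2 and Thbd on the opposite strand, and Serpinb10 overlaps Serpinb2 on the same strand; Sstr4 and Serpinb10 had at most 5.66 normalized counts. TMM scaling factors came from edgeR 4.0.16 in R 4.3.3, and the rest from Python 3.11.15 with pandas 2.3.3, numpy 2.4.6, scipy 1.17.1 and matplotlib 3.10.9.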

Additional observations from a re-analysis of the deposited data

How the results depend on the processing

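No paired analysis was possible because each stiffness had 1 library, and leaving out a replicate was not possible for the same reason. No other setting brought any of the 9 genes to a log2 ratio of 1; at 0.5, 4 passed for 64 against 0.2 kPa, 0 for 8 against 0.2 kPa and 1 for 64 against 8 kPa. For all genes, in the same order, the counts were 822, 215 and 451 at a minimum mean of 10, 238, 8 and 72 at a minimum mean of 200, 5827, 3646 and 3904 without a filter, 1850, 546 and 1050 at 0.5, and 17, 1 and 8 at 2, all by construction of the filter or threshold. Between intermediate and soft, a pseudocount of 10 gave 10 genes and subtraction of the length and GC trend 13; the cause was not tested. Scaling to total reads shifted the stiff to soft ratios by -0.055. Of 135 recomputed ratios of the 9 genes, 123 stayed inside their counting interval. Both pseudocounts and TMM scaling left all inside, which makes up much of that count. For stiff against soft, 5 of 9 left their interval with the trend subtracted and 3 of 9 with scaling to total reads. With the trend subtracted Serpinb2 stood at 0.85 and Serpine2 at -0.62, and Serpine2 stood at -0.74 with scaling to total reads. The sign changed for 2 of the 135, both with the trend subtracted: Tfpi between stiff and intermediate, at 0.05, and Tfpi2 between intermediate and soft, at 0.004. For F3 and the 9 other pathway genes past 0.5 between stiff and soft, 150 ratios were recomputed and 2 changed sign under that setting, Hgf between intermediate and soft (0.01) and Vwf between stiff and intermediate (-0.06). For the other pathway genes and serpins named, except Serpina3h, the trend alone was subtracted, for stiff against soft, which turned the sign of the small ratios of Serpinb6a (0.02), Anxa5 (0.04) and Serpinh1 (-0.04). Levels per kilobase moved for 8 of 9 genes with the union of exons as length. The 9 genes had 1173 reads or more in each library, and the spread between cultures was not measured.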

Other observations

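Among other genes of the serpin family, named here after the values were seen, 63 were counted, Serpinb2 and Serpine2 included, 21 had no read and 22 had a mean of at least 10 normalized counts. Between stiff and soft, 3 were higher and 2 lower by a log2 ratio of at least 0.5, beside 13.4% higher and 6.89% lower of all genes with that mean. Beside Serpinb2 and Serpine2 these were Serpinb12 and Serpinb9e, with intervals that include 0, and Serpina3h, at -1.09 (interval -2.12 to -0.22). Of the other abundant members, Serpinh1, a collagen chaperone, had 48712, 49112 and 51385 normalized counts from soft to stiff, and Serpinf1, which encodes an antiangiogenic factor, 35730, 35683 and 35626. Serping1, the inhibitor of complement C1 and of contact-phase proteases, had 8693, 9214 and 9225. Serpinb8, a neighbour of Serpinb2 on chromosome 1, had 407, 430.8 and 301.5 normalized counts, a stiff to soft ratio of -0.43 (interval -0.66 to -0.21), opposite in sign to Serpinb2.

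The 7 Serpina3 genes that averaged at least 10 normalized counts were all highest in the intermediate library, among them Serpina3f, at 62.5, 125.4 and 54.4 from soft to stiff, and Serpina3n, the most abundant, at 1480.4, 1656 and 1530.1. Members of the Serpina3 cluster on chromosome 12 are similar in sequence, so their separate counts are uncertain.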
